A study of Mus musculus with 4 samples.

Results

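A group of 9 genes of naive T cells and of lymphocyte recirculation was compared between the left and the right pancreatic lymph node of NOD mice, a strain prone to autoimmune diabetes. The members were fixed by name as S1pr1, Klf2, Il7r, Tcf7, Lef1, Foxo1, Foxp1, Satb1 and Cd44. Every array probe whose transcript belongs to one of them was taken, which gave 15 probes of 41174. All 9 genes were measured, of 13400 named genes tested. The gastric lymph node (the left node) and the pancreatico-duodenal lymph node (the right node) were both taken from each of 4 NOD females aged 12 weeks, with no treatment recorded. The gastric node of a mouse (Cy5) and its pancreatico-duodenal node (Cy3) shared a two-colour array, 1 array for each animal. Values are log2 ratios of gastric over pancreatico-duodenal node, so a positive value is a higher level in the gastric node. Dyes were kept the same way round on all 4 arrays, and a difference between nodes and a difference between dyes cannot be told apart. Whole nodes were homogenised, so each value is a sum over all cells of a node. Fewer cells of a type and less RNA per cell cannot be told apart in such samples.

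A naive T cell spends its life moving between blood and lymph nodes. It enters a node through high endothelial venules with the help of the chemokine receptor CCR7. It leaves when S1PR1, the sphingosine 1-phosphate receptor, senses the lipid in lymph. The transcription factor KLF2 turns on the S1pr1 gene. FOXO1 sustains Klf2 and Il7r, and IL-7 signals through the receptor encoded by Il7r keep the resting cell alive. TCF1, encoded by Tcf7, and LEF1 are related DNA-binding proteins that hold T cells in an early, self-renewing state. FOXP1 keeps naive T cells quiescent and the chromatin organiser SATB1 is abundant in the T lineage. CD44, a receptor for hyaluronan, is low on naive and high on activated and memory T cells, and serves as the opposite pole of the group. Several of these genes are also active in B cells, and S1pr1 and Klf2 in endothelium.

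Promoter windows of members are shown because their products include factors that act on each other's genes. RefSeq's windows on GRCm38.p6, of 250 bases before to 50 bases after a start, were present for 8 of the 9 genes (all but S1pr1), in 18 windows. They were searched on both strands for a forkhead motif (GTAAACA), a KLF motif (CCACACCC) and the TCF/LEF motifs CTTTGAA and CTTTGAT. Capitals mark the matches, none of which overlap each other. The first window lies at one of the starts of Tcf7 (chr11:52282546-52282845, minus strand) and held both a forkhead and a KLF match. The second lies at one of the starts of Foxp1 (chr6:99266466-99266765, minus strand) and held the TCF/LEF match CTTTGAA on the opposite strand. The third is that of Il7r (chr15:9529827-9530126, minus strand), the member that varied most between mice, and held none.
Tcf7: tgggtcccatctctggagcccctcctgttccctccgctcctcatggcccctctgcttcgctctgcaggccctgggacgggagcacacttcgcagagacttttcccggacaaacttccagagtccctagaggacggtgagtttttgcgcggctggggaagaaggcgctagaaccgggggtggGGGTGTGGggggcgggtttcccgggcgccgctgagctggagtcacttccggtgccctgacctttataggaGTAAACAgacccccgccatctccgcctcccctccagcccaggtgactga
Foxp1: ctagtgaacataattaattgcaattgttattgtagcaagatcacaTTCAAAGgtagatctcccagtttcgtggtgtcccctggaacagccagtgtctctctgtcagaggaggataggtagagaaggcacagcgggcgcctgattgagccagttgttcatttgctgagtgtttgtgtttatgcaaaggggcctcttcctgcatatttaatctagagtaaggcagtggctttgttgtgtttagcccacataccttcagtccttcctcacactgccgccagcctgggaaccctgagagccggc
Il7r: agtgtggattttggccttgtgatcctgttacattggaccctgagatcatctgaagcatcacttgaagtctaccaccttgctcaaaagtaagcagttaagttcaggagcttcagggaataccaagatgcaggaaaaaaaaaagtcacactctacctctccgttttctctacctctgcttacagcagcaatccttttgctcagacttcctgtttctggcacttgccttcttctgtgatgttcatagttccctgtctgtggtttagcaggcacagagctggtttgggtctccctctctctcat
These 3 matches were the only ones in the 18 windows for the 4 motifs. S1pr1 had no window and was not searched. Among all 32851 windows, 3.65% held the forkhead motif, 3.56% the KLF motif, 5.14% CTTTGAA and 3.73% CTTTGAT. A match describes letters in a window and is not a bound site.

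None of the 9 genes differed between the nodes at an adjusted p under 0.05 (limma with Benjamini-Hochberg adjustment over 21320 features). On the same test 7.54% of all features were called, 3.09% as higher and 4.45% as lower in the gastric node. The mean log2 ratio was above 0 for 8 of the 9 genes, and the median of the 9 was 0.14, against 0.03 for all features. The largest means were those of Satb1 (0.33), Il7r (0.29), S1pr1 (0.24) and Lef1 (0.23), and those of Klf2 and Cd44 were closest to 0. Of the 9, 3 had an unadjusted p under 0.05, a threshold that 30.7% of all features passed. In all 4 mice 3 genes (S1pr1, Foxo1 and Satb1) read above 0, as did 24.1% of all features, and none read below 0 in all 4, as did 17% of all features.

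**Figure D1:**
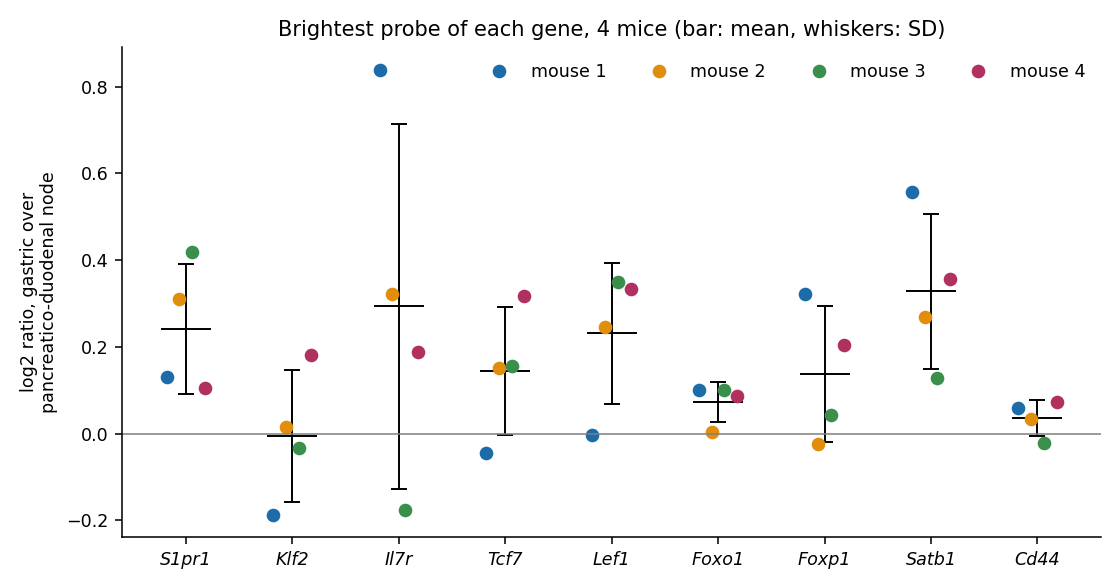
Log2 ratio of gastric over pancreatico-duodenal node for the brightest probe of each gene, with a point for each mouse, a bar at the mean and whiskers of 1 SD (n = 4). S1pr1, Foxo1 and Satb1 lie above 0 in every mouse, Il7r spreads from -0.18 to 0.84, and Foxo1 and Cd44 have the tightest points.

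This outcome depends on how the trend of the ratio with intensity was handled. With the dyes kept the same way round, a dye and a node source of that trend cannot be told apart. With each array only centred on its median in place of the intensity-dependent loess curve, all 9 genes were called higher, at 0.58 for Cd44 to 0.93 for Satb1. Under that setting 69.8% of all features were called, 12821 higher and 2066 lower, so 86.1% of calls were higher, against 41% with loess (659 higher and 949 lower). There the median over all features was 0.32, and the ratio climbed with brightness. Features with a mean log2 intensity of 10 to 11 had a median of 0.56, those of 12 to 13 had 0.62 and those of 15 to 16 had 0.81. The members are bright, from the 77.6 percentile of mean intensity for Foxp1 to the 99.6 percentile for Klf2. Set against the median of all features, they lay 0.26 (Cd44) to 0.61 (Satb1) above it with median centring, and -0.036 (Klf2) to 0.30 (Satb1) from it with loess.

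**Figure D2:**
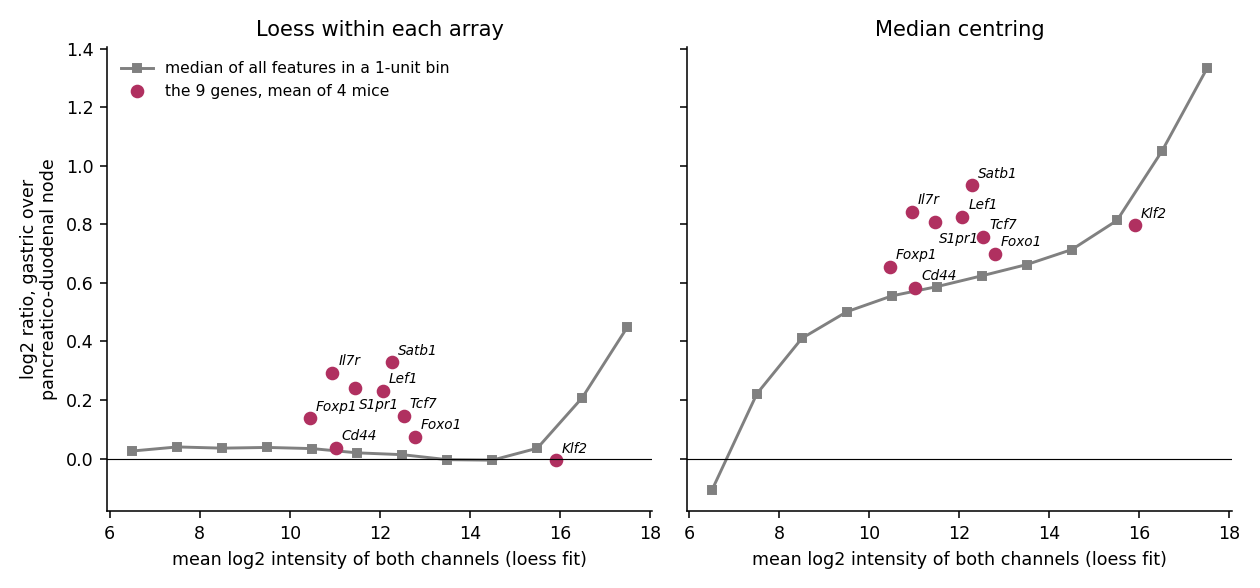
Mean log2 ratio against mean log2 intensity for the 9 genes (points) and the median of all features in bins of 1 intensity unit (squares joined by a line), with loess on the left and median centring on the right. With loess the line stays near 0 up to an intensity of 16 and ends at 0.45 in a last bin of 19 features, while with median centring it climbs to 1.33, and Cd44 and Klf2 sit on or near the line in both panels.

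S1pr1, the receptor that lets lymphocytes leave a node, read 0.13, 0.31, 0.42 and 0.11 in mice 1 to 4. The gastric node was the higher one in every mouse. Its normalised log2 level was 11.58 ± 0.18 in gastric nodes and 11.34 ± 0.14 in pancreatico-duodenal nodes (SD, n = 4). The mean ratio was 0.24 ± 0.15 (SD, n = 4), a 1.18-fold difference with a 95% interval of 1.05 to 1.33 before adjustment, and it did not pass in limma (adjusted p = 0.0810). A single probe stood for S1pr1.

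Klf2, whose product drives S1pr1, had 2 bright probes and showed no common direction. The brighter read -0.19, 0.014, -0.032 and 0.18 in mice 1 to 4, a mean of -0.0060 ± 0.15 (SD, n = 4; limma adjusted p = 0.961). Its log2 level was 15.87 ± 0.23 in gastric nodes and 15.88 ± 0.14 in pancreatico-duodenal nodes. The second probe read -0.065, 0.10, 0.23 and -0.12, a mean of 0.037 ± 0.16. In mice 3 and 4 the probes had opposite signs, so the ratio of a single mouse is not settled for this gene. The 95% interval of the brighter probe's fold ran from 0.886 to 1.12.

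Il7r, the gene of the IL-7 receptor alpha chain, varied most between mice. It read 0.84, 0.32, -0.18 and 0.19 in mice 1 to 4, and its second, dimmer probe kept the same order of mice at 0.41, 0.12, -0.064 and 0.046. Mouse 1 was highest and mouse 3 was below 0 on both probes. The level behind the highest ratio was a low one in the pancreatico-duodenal node of mouse 1, at 9.91, against 10.77, 11.09 and 11.46 in those of mice 2 to 4. Gastric nodes read 10.75, 11.09, 10.91 and 11.65 in mice 1 to 4. The mean ratio of 0.29 ± 0.42 (SD, n = 4) did not pass (limma adjusted p = 0.264), and it was 0.11 without mouse 1 and 0.45 without mouse 3.

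**Figure D3:**
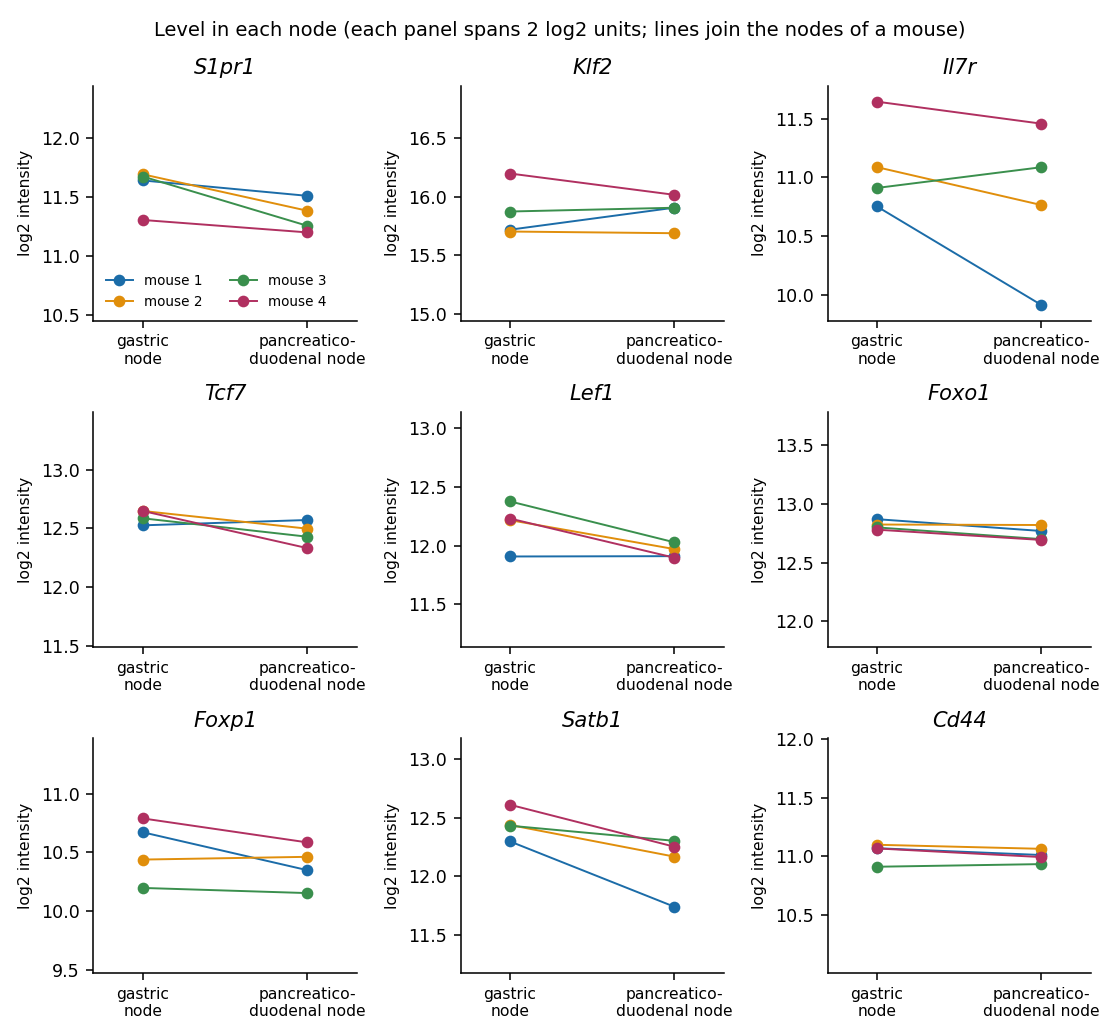
Normalised log2 intensity of the brightest probe of each gene in the gastric node (left) and the pancreatico-duodenal node (right), with a line for each mouse and every panel spanning 2 log2 units. The lines of Foxo1 and Cd44 are nearly flat, those of S1pr1 and Satb1 slope down to the pancreatico-duodenal node in all 4 mice, and that of Il7r is steepest in mouse 1.

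Tcf7, the gene of TCF1, gave opposite signs on its 2 probes. The brighter one read -0.045, 0.15, 0.16 and 0.32 in mice 1 to 4, a mean of 0.14 ± 0.15 (SD, n = 4; limma adjusted p = 0.207) that was 0.087 without mouse 4. The further probe read -0.28, -0.20, -0.13 and -1.28, below 0 in every mouse, with a mean of -0.47 ± 0.54 (limma adjusted p = 0.173 with every kept probe as a feature, a fit that called 7.92% of 27603 probes and none of the members' 15). On that probe the gastric level of mouse 4 was 9.82, against 11.18, 11.37 and 11.23 in mice 1 to 3, while pancreatico-duodenal nodes lay between 11.10 and 11.58. Both probes are assigned to the same transcript, and neither passed. Averaging them gave -0.16 for the gene, a turn of sign. Where the probes lie on the transcript was not analysed here.

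Lef1, the relative of Tcf7, had its lowest value in mouse 1, as did the brighter Tcf7 probe. It read -0.0028, 0.25, 0.35 and 0.33 in mice 1 to 4, level in mouse 1 and higher in the gastric node of the other 3. The log2 level was 12.18 ± 0.20 in gastric nodes and 11.95 ± 0.06 in pancreatico-duodenal nodes (SD, n = 4). The mean was 0.23 ± 0.16 and did not pass (limma adjusted p = 0.0983). Without mouse 1 it was 0.31 and passed (limma adjusted p = 0.0268), in a fit that called 2167 of all 21320 features. It did not pass without mouse 2, mouse 3 or mouse 4 (limma adjusted p = 0.267, 0.215 and 0.299 in that order).

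Satb1, which encodes a chromatin organiser of the T lineage, came closest to passing. It read 0.56, 0.27, 0.13 and 0.36 in mice 1 to 4, above 0 in each. The log2 level was 12.45 ± 0.13 in gastric nodes and 12.12 ± 0.26 in pancreatico-duodenal nodes. The mean of 0.33 ± 0.18 (SD, n = 4), or 1.26-fold, had a limma adjusted p = 0.0579. It passed when the 4 arrays were scaled to a common spread (0.32, limma adjusted p = 0.0416), a setting that called 2250 of all features. Mouse 1, the highest for Satb1, was also the highest for Il7r and Foxp1.

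Neither forkhead gene passed. Foxo1, whose product sustains Klf2 and Il7r, read 0.10, 0.0041, 0.10 and 0.087 in mice 1 to 4 on the brighter probe and 0.036, 0.0049, 0.030 and 0.088 on the other. All 8 values were above 0 and small. The mean of the brighter probe was 0.073 ± 0.046 (SD, n = 4; limma adjusted p = 0.305) with a 95% interval of 0.976- to 1.13-fold. Foxp1, a quiescence factor, read 0.32, -0.023, 0.044 and 0.20, a mean of 0.14 ± 0.16 (limma adjusted p = 0.240), with mouse 1 highest and mouse 2 just below 0. Its 95% interval was 0.976- to 1.24-fold, and without mouse 1 the mean was 0.075.

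Cd44, the activation and memory marker, did not differ detectably on any of 3 probes. The brightest read 0.058, 0.035, -0.022 and 0.074 in mice 1 to 4, a mean of 0.036 ± 0.042 (SD, n = 4; limma adjusted p = 0.596) with a 95% interval of 0.952- to 1.10-fold. The second probe is printed in 10 spots on each array, which shows the error between spots. Its array means were 0.13, 0.034, -0.059 and 0.16, and the SD over the 10 spots of an array was 0.040, 0.041, 0.052 and 0.052. The SD of the 4 array means was 0.098. Both probes placed mouse 4 highest and mouse 3 lowest. The third probe averaged -0.0043 ± 0.10 but was not well above background in the pancreatico-duodenal node on any array, so no fold is given.

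**Figure D4:**
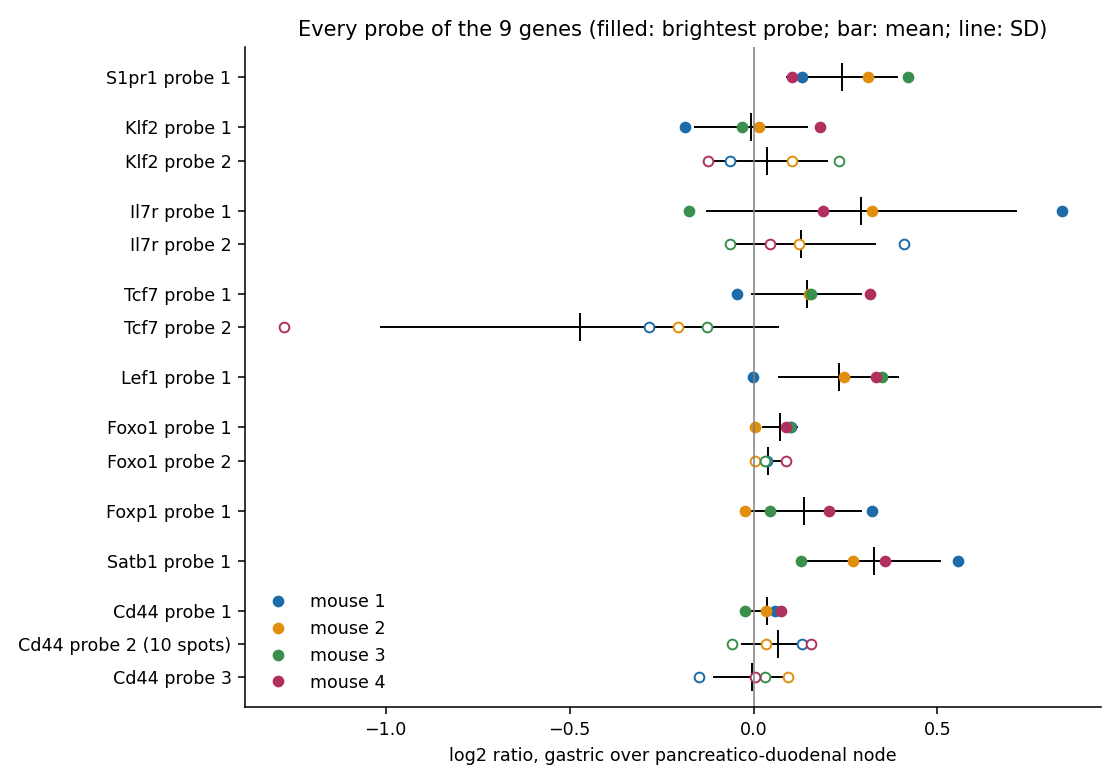
Log2 ratio of gastric over pancreatico-duodenal node for all 15 probes of the 9 genes, with a point for each mouse, a tick at the mean and a line of 1 SD to each side (n = 4). The means of the 2 probes of Klf2 (-0.0060 and 0.037) and of Foxo1 (0.073 and 0.040) lie close together and those of Il7r lie further apart (0.29 and 0.13), while the 2 probes of Tcf7 lie on opposite sides of 0 and mouse 4 stands apart at -1.28.

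Taking the brightest Cd44 probe as one pole, the median of the other 8 genes exceeded it by 0.058, 0.16, 0.14 and 0.12 in mice 1 to 4, a mean of 0.12 ± 0.045 (SD, n = 4). Against the Cd44 probe of 10 spots the differences were -0.015, 0.16, 0.17 and 0.040, so the sign in mouse 1 depended on the probe. This is given as a description, since the genes were chosen with results known. The order of the genes differed between mice. On the brightest probes Klf2, Tcf7 and Lef1 were lowest in mouse 1, whereas Il7r, Foxp1 and Satb1 were highest there. The further probes of Klf2 and Tcf7 were lowest in mouse 4.

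T cell markers (such as the CD3 chain genes, Cd4 and Cd8a) and B cell markers were checked in the same arrays, as both cell types use several of the 9 genes. All 14 measured T cell markers and all 10 B cell markers were well above background in both nodes of every mouse. The T cell median was -0.11, 0.11, 0.088 and 0.23 in mice 1 to 4, with 1 of 14 called (Cd3g, a component of the T cell receptor complex, higher at 0.32 ± 0.14; SD, n = 4; limma adjusted p = 0.0455). Of all features 7.54% were called, and the Cd3g call was lost in 6 of 16 alternatives. The B cell median was 0.18, -0.026, 0.12 and -0.085, with none of 10 called (limma; 2 at an unadjusted p under 0.05). Set against the T cell median of its own array, the brighter probe of Tcf7 lay 0.066 ± 0.022 above in 4 of 4 mice, while its further probe was at -0.55 ± 0.64, below in all 4. The brighter probe of Klf2 was at -0.085 ± 0.032, below in 4 of 4 mice, and its second probe at -0.041 ± 0.22, above in 2 and below in 2. Lef1 lay 0.15 ± 0.07 above, in 4 of 4 mice, and Satb1 0.25 ± 0.28 above, also in 4 of 4. Il7r (0.21 ± 0.53), S1pr1 (0.16 ± 0.20), Foxp1 (0.058 ± 0.26), Foxo1 (-0.0056 ± 0.16) and Cd44 (-0.043 ± 0.15) did not keep 1 sign. No p is given for these differences, since an exact sign-flip test on 4 mice cannot reach 0.05.

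Part of the markers of endothelium, macrophages and stroma were called lower in the gastric node in the same arrays. Of all features 4.45% were called lower. Blood endothelium, in which S1pr1 and Klf2 are also active, had list medians of -0.044, -0.34, -0.67 and -0.45 in mice 1 to 4, with 4 of 10 called lower, among them the receptor gene Tie1 (-0.58 ± 0.07) and Plvap (-0.54 ± 0.18). S1pr1 was above 0 in each of these mice, while the brighter probe of Klf2 was below 0 in mice 1 and 3 and above it in mice 2 and 4. Lymphatic endothelium had 4 of 7 lower (median -0.53; Stab1 at -0.87 ± 0.32 and Reln at -0.78 ± 0.33), macrophages 6 of 9 (median -0.85; Adgre1 at -1.36 ± 0.71 and Cd163 at -1.26 ± 0.30) and fibroblastic stroma 4 of 9 (median -0.58; Col3a1 at -0.84 ± 0.34 and Bgn at -0.72 ± 0.14), with none higher (SD, n = 4). With median centring Plvap (0.054) and Col3a1 (-0.22) lost their calls, and the sign of Plvap turned. Tie1, Stab1, Reln, Adgre1, Cd163 and Bgn were still called lower there. Exocrine pancreas markers had medians of -0.28, 0.22, -4.75 and 0.85, and adipocyte markers 1.70, -1.76, 0.43 and -1.58, with none called in either list (limma; 0 at an unadjusted p under 0.05). The part of these cells in the members' ratios was not tested.

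**Figure D5:**
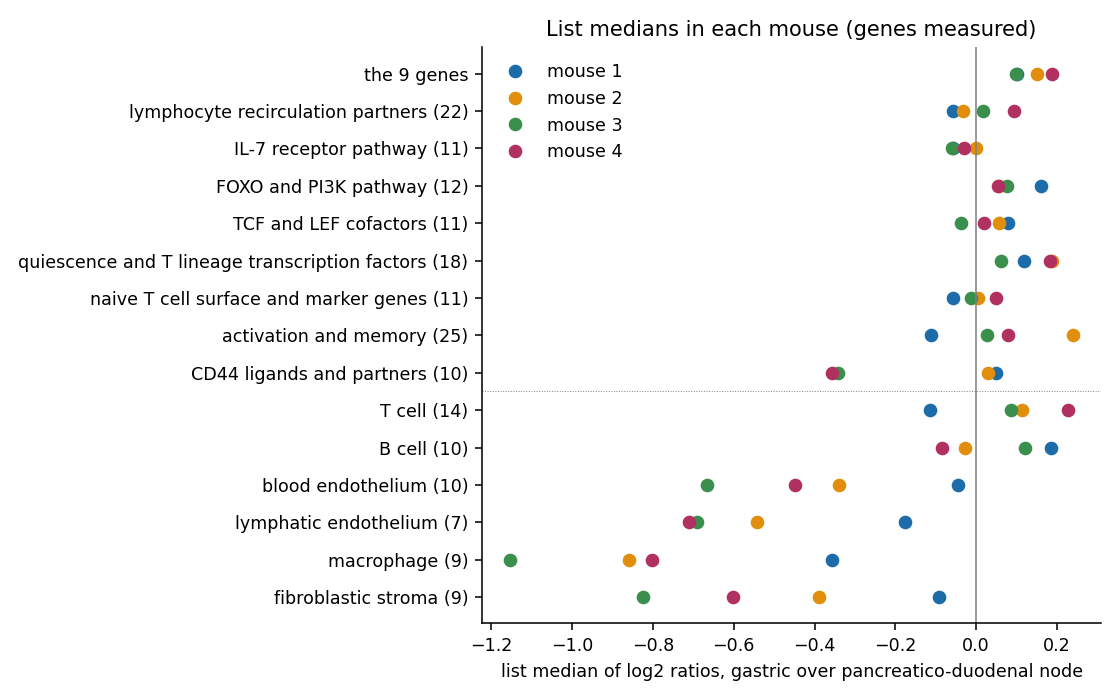
Median log2 ratio of gastric over pancreatico-duodenal node in each mouse for the 9 genes, 8 pathway lists and 6 marker lists (number of genes measured in brackets). The medians of the 9 genes lie between 0.10 and 0.19 in the 4 mice, the T cell medians between -0.11 and 0.23, and those of endothelium, macrophages and stroma are below 0 in every mouse.

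The partners of these genes were examined in 8 pathway lists of 128 genes in all. Of 117 measured, 11 were higher and 5 lower in the gastric node and 101 did not pass, or 13.7% called, against 7.54% of all features. Without mouse 2, mouse 3 or mouse 4 none of them passed, and of all 21320 features only 0, 3 and 1 did. With the scanner software's log ratio or the authors' deposited table of log2 ratios, only Cdkn1b (higher) and Igfbp4 (lower) kept the call. With median centring 96 were called higher and only Igfbp4 lower.

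In the list of recirculation partners none of 22 genes was higher and 2 were lower (median 0.02, against 0.03 for all features). Sgpl1 encodes the lyase that degrades sphingosine 1-phosphate, the lipid that S1PR1 senses. It was at -0.23 ± 0.03 (SD, n = 4; limma adjusted p = 0.0393), with values from -0.25 to -0.19, and its further probe was at -0.43. Gnai2, the G protein subunit through which S1PR1 and chemokine receptors signal, was at -0.26 ± 0.09 (limma adjusted p = 0.0451). With median centring both were called higher, Sgpl1 at 0.32 and Gnai2 at 0.34 (limma adjusted p = 0.00212 and 0.00554), as were most of all features. The homing receptor gene Ccr7, singled out after its values were seen, read -0.53, -0.36, -0.32 and -0.020 in mice 1 to 4. It was below 0 in every mouse and did not pass (limma adjusted p = 0.0827).

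In the IL-7 receptor pathway 1 of 11 genes was higher and none lower (median -0.03). Stat5b, a transcription factor gene downstream of the receptor, read 0.20, 0.45, 0.44 and 0.29 (mean 0.35 ± 0.12, SD, n = 4; limma adjusted p = 0.0369). Its further, dim probe was at -0.094 ± 0.080, so the probes had opposite signs. The call was lost when probes were averaged.

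In the FOXO and PI3K list 1 of 12 was higher and 1 lower (median 0.10). Cdkn1b, the gene of the cell cycle inhibitor p27 and a FOXO target, read 0.37, 0.48, 0.40 and 0.24 (mean 0.37 ± 0.10, SD, n = 4; limma adjusted p = 0.0292; further probe 0.095). It was higher in every mouse. Akt2, a kinase gene of the pathway that inactivates FOXO proteins, was at -0.29 ± 0.13 (limma adjusted p = 0.0494), a call lost in 10 of 16 alternatives. With median centring Akt2 was called higher (0.24, limma adjusted p = 0.0216).

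Among TCF and LEF cofactors 3 of 11 were higher and none lower (median 0.04). Nlk, a kinase gene that acts on TCF and LEF proteins, was at 0.38 ± 0.15, the corepressor gene Tle4 at 0.31 ± 0.13 and Ctnnb1, which encodes beta-catenin, at 0.23 ± 0.07 (SD, n = 4; limma adjusted p = 0.0395, 0.0447 and 0.0477 in that order). All 3 were above 0 in every mouse. The further probe of Nlk was at 0.13 and that of Ctnnb1 at -0.068, and the Ctnnb1 call was lost in 8 of 16 alternatives.

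Quiescence and T lineage factors had 3 of 18 higher and none lower, with the highest median of the 8 lists (0.17). Tox, an HMG-box factor gene, was at 0.36 ± 0.13, Ets1 at 0.27 ± 0.10 and the antiproliferative gene Btg1 at 0.22 ± 0.03 (SD, n = 4; limma adjusted p = 0.0373, 0.0455 and 0.0428). The further probes read 0.16 for Tox, 0.22 and 0.050 for Ets1 and -0.0076 for Btg1, and the calls of Ets1 and Btg1 were lost when probes were averaged.

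Among further naive T cell markers 2 of 11 were higher and 1 lower (median 0.03). Nsg2, used as a marker of naive T cells in mouse, read 0.23, 0.66, 0.64 and 0.69 (mean 0.55 ± 0.22, SD, n = 4; limma adjusted p = 0.0328). Cd28, the costimulatory receptor gene, was at 0.33 ± 0.15 (limma adjusted p = 0.0466), a call lost in 8 of 16 alternatives. Igfbp4, also a product of stromal cells, read -0.84, -0.83, -0.91 and -0.71 (mean -0.82 ± 0.08; limma adjusted p = 0.0157; further probe -0.79). It was lower in every mouse. Of the 9 genes of the fibroblastic stroma list 4 were called lower, and 2 had a mean above 0 (Pdgfra at 0.12 and Pdgfrb at 0.079). The medians of that list were -0.091, -0.39, -0.82 and -0.60 in mice 1 to 4. The part of stroma in the Igfbp4 value was not tested.

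No gene of the activation and memory list passed out of 25 (limma; 5 at an unadjusted p under 0.05; median 0.07). Its brightest members were the chemokine gene Ccl5, at -0.72, 0.37, -0.73 and -0.0092 in mice 1 to 4, and S100a4, at 0.025, 0.26, -0.055 and 0.066. Among ligands and partners of CD44, 1 of 10 was higher and 1 lower (median -0.18). Hyal2, a hyaluronidase gene, was at -0.45 ± 0.23 (SD, n = 4; limma adjusted p = 0.0459), and Msn, which encodes moesin, a linker of CD44 to actin, at 0.25 ± 0.05 (limma adjusted p = 0.0381). The call of Hyal2 was lost with median centring and its sign turned, and 2 further probes of Msn were at -0.075 and -0.071.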

How the data were processed

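Per the labels' protocols, RNA of both nodes was amplified and labelled, and both extracts of a mouse went on 1 array. The deposited scanner files hold mean, background and processed intensity values of 45018 spots per array and a log10 ratio of Cy5 over Cy3, made with Agilent Feature Extraction 10.2.1.3 per the file headers. A further deposited table, from the authors, gives log2 ratios that equal those of the processed signals to within 5.11e-05 (column medians -0.15, -0.06, -0.03 and -0.03). All arrays share 1 slide and scan, per the file headers.

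Intensities were corrected with normexp (offset 50) and normalised by loess within arrays (limma 3.58.1 in R 4.3.3), with control and outlier-flagged spots at weight 0 and the latter then left out. Spots of a probe were averaged. A probe was kept if well above background in 1 channel on at least 3 of 4 arrays (27603 of 41174). Transcripts were named through RefSeq (GRCm38.p6), which matched 24844 probes. The brightest kept probe stood for a gene, giving 21320 features. Mean ratios were tested against 0 with lmFit and eBayes, with Benjamini-Hochberg adjustment. Levels per channel were scaled by Aquantile. Saturated spots were not found. Precision is limited by the 4 arrays. Between 67.1% and 71.4% of probes were well above background in gastric nodes and between 59.6% and 62.6% in pancreatico-duodenal nodes.

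The members and lists were chosen with earlier results of these data known. All 9 members are named. From each pathway list up to 3 called genes with the largest ratio are named, or the 2 brightest where none was called, and from each marker list up to 2 called genes. The steps were tested on simulated data, and how often differences as small as the members' were recovered there is not given here.
Alternatives covered background correction, normalisation within arrays, array scaling, filters and handling of several probes. They also covered the variance trend, the pairing of channels, the authors' table, the threshold and leaving out each mouse.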

Additional observations from a re-analysis of the deposited data

Results flagged for a closer look

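Among the 15 probes of the 9 genes, 2 had a mouse far from the other 3 by Dixon's ratio (the gap to the nearest value over the whole range). On the further Tcf7 probe mouse 4 read -1.28, against -0.28 to -0.13 in the other mice (ratio 0.864). On the brighter Foxo1 probe mouse 2 read 0.0041, against 0.087 to 0.10 in the others (ratio 0.863). Both ratios exceed the 95% critical value for 4 samples. The Foxo1 gap lies within a range of 0.097 on the log2 scale. Chance alone flags about 1 in 20 such groups.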

How the results depend on the processing

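The count of members called was 0, and became 9 with median centring in place of loess, 1 with arrays scaled to a common spread (Satb1) and 3 at a threshold of 0.1 (S1pr1, Lef1 and Satb1). Without single mice it ranged from 0 to 1. The median of the members' ratios, 0.14, was 0.80 with median centring and ranged from 0.11 to 0.19 without single mice. Klf2 (-0.0060) turned sign in 5 of 16 alternatives, to 0.80 with median centring, 0.0073 with scaled arrays and 0.016 with averaged probes, and ranged from -0.068 to 0.055 without single mice. Tcf7 turned to -0.16 with averaged probes. The other 7 genes kept their sign in all 16.

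All features called numbered 1608, and 1049 with the scanner software's ratio, 14887 with median centring, 2250 with scaled arrays, 912 with no replicate block (channels unpaired), 4206 at 0.1, and 0 (without mouse 2, with 4343 at an unadjusted p under 0.05 in limma) to 2167 (without mouse 1) without single mice. Pathway genes called higher (11) and lower (5) became 1 and 1 with the scanner software's ratio and with the authors' series table, 96 and 1 with median centring, 5 and 2 with no replicate block, 20 and 14 at 0.1, and 6 and 7 with averaged probes, where lower calls outnumbered higher ones. Without single mice they ranged from 0 to 18 and from 0 to 8. No member passed in the unpaired fit (lowest adjusted p 0.148, limma). The cause of these shifts was not tested. Background correction, the filters, the variance trend and probes as features left the count at 0. Only 4 mice and a single dye orientation limit what can be told.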
